A study of Mus musculus with 5 samples.

Results

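The genes studied here were 10 genes of the integrated stress response and the unfolded protein response: Atf4, Ddit3, Atf3, Trib3, Asns, Chac1, Sesn2, Xbp1, Hspa5 and Herpud1. They were found by the gene name printed in the array design, which gave 18 of 56605 probes and 10 of 37074 gene names. Expression was measured on 5 single-colour Agilent mouse arrays with 60-base probes, and each array held 1 sample. The samples were liver sinusoidal endothelial cells (LSECs) from C57BL/6 liver, tumor endothelial cells (TECs) from hepatomas of the lines HAK-1B, Hepa1-6 and KYN-2 grown in the liver, and cultured Hepa1-6 cells of strain C57L. Hepa1-6 is a hepatoma line of mouse origin, whereas the other lines come from human hepatomas, so the cancer cells of the HAK-1B and KYN-2 tumors are human while the array probes are mouse sequences.

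The labels give C57BL/6 for all endothelial samples. The methods name female mice of 6 weeks, either C57BL/6 or BALB/c nu/nu nude mice, which lack a thymus and mature T cells, and do not say which host carried which tumor. TECs were taken with magnetic beads as the CD31-positive fraction of collagenase-digested tumor, and LSECs were isolated with beads too, so other cells that carry CD31 could be taken along. The paper reports a check of purity by flow cytometry and treats some contamination with cancer cells as unavoidable. The labels name no treatment for any sample. How many mice contributed to each sample is not stated.

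The integrated stress response starts when kinases that sense amino acid shortage, double-stranded RNA, heme shortage or unfolded protein phosphorylate the translation factor eIF2α, which lowers protein synthesis overall but raises translation of the transcription factor ATF4. ATF4 then switches on genes for amino acid synthesis and uptake and further transcription factors such as CHOP, the product of Ddit3. The unfolded protein response overlaps with it at the kinase PERK and adds the sensors IRE1 and ATF6, which act through XBP1 and cleaved ATF6 on chaperones and on the machinery that removes misfolded proteins from the endoplasmic reticulum (ER). In the liver both responses are known from secretory stress and amino acid limitation. The arrays measured mRNA, so they do not show ATF4 translation, eIF2α phosphorylation or XBP1 splicing.

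Promoter sequences are printed for the 5 genes that held a full stress response motif in the 250 bases before the RefSeq transcription start (GRCm38.p6), since the response is defined by factors that bind such motifs. Capitals mark the motifs. TGATGNAA, the C/EBP-ATF element bound by ATF4 with a partner, was searched on both strands and lay in 4 of 10 promoters against 3.45% of 32851 promoters of the same length. The ER stress element, CCAAT and CCACG with 9 bases between them, lay in Hspa5 only, against 0.113% of promoters, and its second form, ATTGG and CCACG with 1 base between them, in Herpud1 only, against 0.0304%. Both were searched on both strands, and in Herpud1 the second form did not overlap the C/EBP-ATF element. The unfolded protein response element TGACGTGG, in 0.563% of promoters, and the cyclic AMP response element TGACGTCA, in 1.55%, matched none of the 10 promoters. The shorter string CCACG, which is also the end of both ER stress elements, lay in 6 of 10 and in 28.3% of all, and GTTACA lay in 0 of 10 and in 7.07%. Promoters of all 10 genes were in the RefSeq table, and a match describes letters and not binding.
Asns promoter, chr6:7693210-7693459 (-): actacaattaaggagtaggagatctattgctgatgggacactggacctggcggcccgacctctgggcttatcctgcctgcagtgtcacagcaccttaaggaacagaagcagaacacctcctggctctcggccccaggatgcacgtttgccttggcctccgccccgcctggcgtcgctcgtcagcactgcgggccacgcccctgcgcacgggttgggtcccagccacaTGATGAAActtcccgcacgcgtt
Chac1 promoter, chr2:119350992-119351241 (+): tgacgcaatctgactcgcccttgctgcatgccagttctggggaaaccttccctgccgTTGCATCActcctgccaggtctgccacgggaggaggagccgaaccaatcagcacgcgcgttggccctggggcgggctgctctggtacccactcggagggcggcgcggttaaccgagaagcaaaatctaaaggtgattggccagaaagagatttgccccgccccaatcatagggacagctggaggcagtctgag
Atf3 promoter, chr1:191183334-191183583 (-): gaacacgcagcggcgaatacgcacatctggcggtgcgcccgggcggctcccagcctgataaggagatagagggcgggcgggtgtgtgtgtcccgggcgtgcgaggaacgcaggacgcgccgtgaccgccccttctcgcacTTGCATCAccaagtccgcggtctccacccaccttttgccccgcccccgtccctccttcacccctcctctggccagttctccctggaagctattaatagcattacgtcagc
Hspa5 promoter, chr2:34771840-34772089 (+): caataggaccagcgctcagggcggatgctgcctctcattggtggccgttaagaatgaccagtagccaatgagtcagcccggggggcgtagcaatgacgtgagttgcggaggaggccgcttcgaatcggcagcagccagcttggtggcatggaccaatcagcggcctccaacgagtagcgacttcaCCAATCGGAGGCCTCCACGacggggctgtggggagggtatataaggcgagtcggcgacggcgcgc
Herpud1 promoter, chr8:94386179-94386428 (+): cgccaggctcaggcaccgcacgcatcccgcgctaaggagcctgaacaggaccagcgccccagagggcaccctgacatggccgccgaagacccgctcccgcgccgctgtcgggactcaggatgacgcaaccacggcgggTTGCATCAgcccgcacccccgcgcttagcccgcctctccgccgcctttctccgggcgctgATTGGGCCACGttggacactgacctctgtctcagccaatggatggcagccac

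The element in Asns began 23 bases before the start, on the strand of the gene. The element in Chac1 began 193 bases before the start on the opposite strand, that in Atf3 110 bases and that in Herpud1 112 bases, both also on the opposite strand. Through the brightest probes, Asns was higher than LSEC in all 3 TECs and Herpud1 lower in all 3. Chac1 was higher in 1 and lower in 2. Atf3 was higher in the HAK-1B and KYN-2 TECs and lower in Hepa1-6 TEC, each within 2-fold of LSEC. The other Herpud1 probe was not below LSEC in the HAK-1B and KYN-2 TECs.

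Of the 18 probes, 3 span more genome than their 60 bases in the mm9 design coordinates, which places them across an exon junction. The Ddit3 and Asns probes of this kind are printed because the probes of Ddit3 disagree and those of Asns do not.
Ddit3 probe, chr10:126732518-126732821 (+): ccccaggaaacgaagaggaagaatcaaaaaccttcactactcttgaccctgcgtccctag
Asns probe, chr6:7626110-7626255 (-): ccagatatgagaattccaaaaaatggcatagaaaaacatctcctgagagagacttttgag

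Signals were log2 transformed and quantile normalized over the 5 arrays. All 18 probes were well above background on all 5 arrays, except that the dimmer Asns probe was not in LSEC. A gene was read through its brightest probe, and other probes are given beside it. Well above background were 54.1% of probes in LSEC, 57.6% in HAK-1B TEC, 78.1% in Hepa1-6 TEC, 54.7% in KYN-2 TEC and 44.6% in the cultured cells, and repeated spots within an array had median coefficients of variation between 2.62% and 3.08%. Each condition had a single array, and so no single comparison has a replicate check. LSECs, TECs and cultured cells lay on 3 separate slides, and the slide cannot be told apart from the group.

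The label of the samples was compared with marker genes. All 8 endothelial markers were well above background in LSEC and in each TEC and 1 of 8 in the cultured cells, and their summed log2 level was 17.4 in LSEC, 14.5 to 15.5 in TECs and 7.67 in the cultured cells. Macrophage markers were well above background in 7 of 7 cases on all 4 endothelial arrays, at summed log2 levels of 18.6 to 19.4. LSEC markers were well above background in 7 of 7 cases on these arrays too, with median log2 ratios to LSEC of -2.47, -2.70 and -2.38 in the HAK-1B, Hepa1-6 and KYN-2 TECs. Over the same TECs the median ratio of fibroblast and stellate markers was 2.61, 3.41 and 3.91, and the collagen gene Col1a2 read 8.35 in LSEC and 10.96, 11.89 and 12.37 in the TECs.

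Other cell types differed too, and for neutrophil markers the summed level showed little of it. Hepatocyte markers summed to 15.4 in LSEC, 11.3 in HAK-1B TEC, 16.1 in Hepa1-6 TEC, 13.2 in KYN-2 TEC and 14.6 in the cultured cells. Neutrophil markers were well above background in 4 of 7 cases in LSEC, 7 of 7 in HAK-1B and Hepa1-6 TECs and 6 of 7 in KYN-2 TEC, and their median log2 level was 7.82, 14.07, 12.19 and 9.44 in that order. The summed neutrophil level was 16.5, 17.6, 16.1 and 16.3. Csf3r, which read 15.22 even in the cultured cells, was its largest part except in HAK-1B TEC. There S100a9 read 16.46 and Csf3r 15.80. S100a8 read 7.82 in LSEC and 14.86, 12.19 and 9.44 in the TECs. Plasma cells carry a high load of ER proteins, and their markers did not move together: Prdm1 read 11.28 in LSEC and 12.89, 11.87 and 12.22 in the TECs, and Jchain 11.05 and then 8.11, 3.77 and 6.94. In such bulk samples fewer cells of a type and less RNA per cell cannot be told apart, and the part of these other cell types in the results was not tested.

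**Figure D1:**
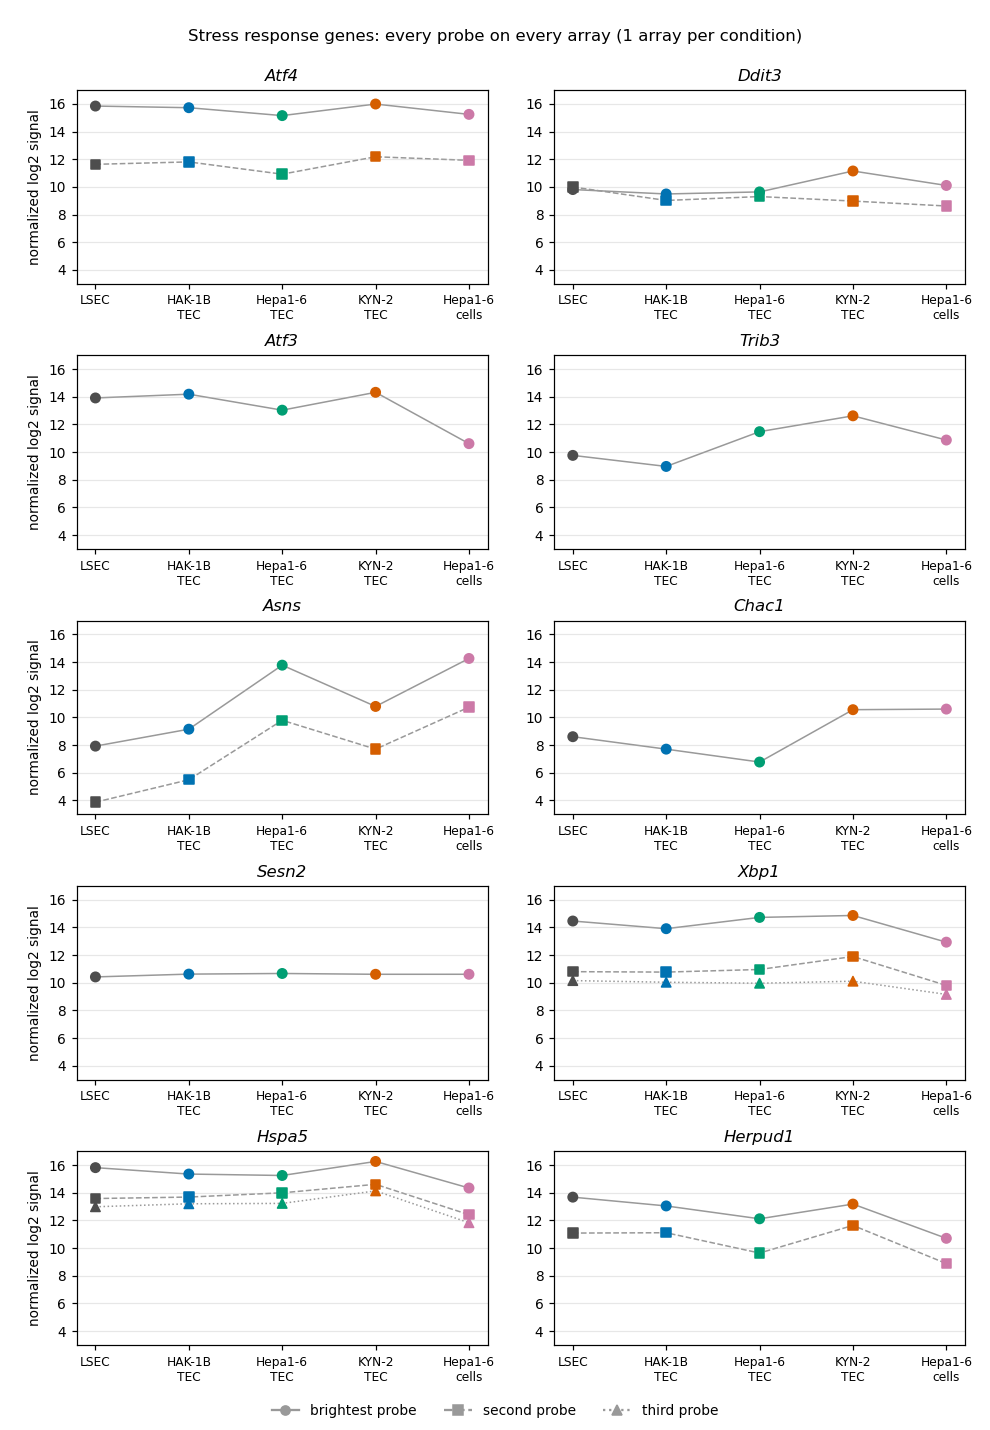
Normalized log2 signal (vertical axis) of every probe of the 10 genes on the 5 arrays (horizontal axis, 1 array each); circles are the brightest probe, squares and triangles the others, and lines join the values of 1 probe. Asns rises from 7.93 in LSEC to 14.27 in cultured Hepa1-6 cells, Sesn2 stays between 10.42 and 10.67, and the probes of Ddit3 part in KYN-2 TEC.

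Among the transcription factors of the integrated stress response, Atf4 and Atf3 stayed within 2-fold of LSEC in each TEC, and of the TECs only KYN-2 had Ddit3 above LSEC, by 2.53-fold through its brightest probe. Atf4, the factor whose translation rises when eIF2α is phosphorylated, had log2 signals of 15.84 in LSEC, 15.72 in HAK-1B TEC, 15.15 in Hepa1-6 TEC, 15.99 in KYN-2 TEC and 15.24 in cultured Hepa1-6 cells. The Hepa1-6 TEC and the cultured cells were the lowest. The mean log2 ratio of the 3 TECs to LSEC was -0.22 ± 0.43 (SD, n = 3), smaller than the spread between tumors, and it turned to 0.28 when arrays were scaled to their 75th percentile. Under that scaling the sign of the HAK-1B TEC ratio turned as well, from -0.12 to 0.35, and that of the cultured cells from -0.60 to 0.29. The other Atf4 probe read 11.63, 11.80, 10.92, 12.17 and 11.92 in the same order, again lowest in Hepa1-6 TEC and highest in KYN-2 TEC.

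Ddit3 encodes CHOP, a factor that follows ATF4 and is known from cell death under lasting stress. Its brightest probe, the exon-junction probe shown above, read 9.80 in LSEC, 9.48 in HAK-1B TEC, 9.63 in Hepa1-6 TEC, 11.15 in KYN-2 TEC and 10.10 in the cultured cells. KYN-2 TEC was the highest of the 5 arrays. The other Ddit3 probe, at chr10:126731579-126731638 (mm9), read 9.99, 9.02, 9.30, 8.97 and 8.61 in the same order, which put LSEC highest and KYN-2 TEC 2.03-fold below it. The probes of Ddit3 thus gave opposite signs in KYN-2 TEC, at log2 ratios of 1.34 and -1.02, and the higher Ddit3 signal there rests on 1 of 2 probes. The array design assigns them to different transcripts, the brightest to a RefSeq transcript and the other to an Ensembl transcript. Whether both read the same mRNA was not tested. A mean over the probes of a gene, in place of the brightest, gave a mean log2 ratio over the TECs of -0.31, against 0.28 ± 0.92 (SD, n = 3) through the brightest. Without the KYN-2 TEC the latter was -0.25.

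Atf3, a factor induced early by many stresses and by tissue handling, read 13.92 in LSEC, 14.19 in HAK-1B TEC, 13.04 in Hepa1-6 TEC, 14.33 in KYN-2 TEC and 10.62 in the cultured cells. The 4 endothelial samples lay within 2.45-fold of each other, and the cultured cells were 9.87-fold below LSEC. Immediate early genes moved the same way there: all 10 of a list of 10 were at least 2-fold below LSEC in the cultured cells, as were 30.9% of all genes, with a median log2 ratio of -4.23, while in the TECs the list's median was 0.32, -0.07 and 0.02. The endothelial samples were isolated from tissue and the cultured cells were not, and the part of that handling in Atf3 was not tested.

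Effectors downstream of ATF4 held the largest differences. Asns, which makes asparagine from aspartate and glutamine, was the one gene of the 10 above 2-fold in all 3 TECs. It read 7.93 in LSEC, 9.15 in HAK-1B TEC, 13.78 in Hepa1-6 TEC, 10.80 in KYN-2 TEC and 14.27 in the cultured cells. LSEC was the lowest of the 5 arrays, and the Hepa1-6 TEC and the cultured Hepa1-6 cells were close to each other and far above the rest. The ratios to LSEC were 2.34-fold in the HAK-1B TEC, 57.8-fold in the Hepa1-6 TEC, 7.31-fold in the KYN-2 TEC and 80.9-fold in the cultured cells. The dimmer Asns probe kept the order, with 3.88 in LSEC, where it was not well above background, then 5.50, 9.80, 7.71 and 10.74.

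The mean log2 ratio of Asns over the 3 TECs was 3.32 ± 2.35 (SD, n = 3). Leaving out 1 TEC in turn, or another scaling, background correction or probe rule, moved it between 2.05 and 4.36. Without the Hepa1-6 TEC it was 2.05. The Asns signal of Hepa1-6 TEC was 0.715 times that of the cultured Hepa1-6 cells after normalization. Of 8 hepatocyte markers the summed level was highest in this TEC, as were Alb, Fgb, Ttr and Apoa1. Cps1 and Apoa2 were highest in KYN-2 TEC, and Serpina1a and Cyp2e1 in LSEC. In the cultured cells 4 of the 8 markers were well above background. Whether Asns RNA in that sample came from cancer cells was not tested.

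Trib3, a pseudokinase that ATF4 and CHOP induce and that feeds back on ATF4, read 9.77 in LSEC, 8.97 in HAK-1B TEC, 11.48 in Hepa1-6 TEC, 12.63 in KYN-2 TEC and 10.88 in the cultured cells. HAK-1B TEC was the lowest array and KYN-2 TEC the highest, 12.6-fold apart. Against LSEC, Trib3 was 1.74-fold lower in HAK-1B TEC, 3.28-fold higher in Hepa1-6 TEC and 7.26-fold higher in KYN-2 TEC, which gave a mean log2 ratio of 1.26 ± 1.87 (SD, n = 3). That mean was 0.46 without the KYN-2 TEC and 2.29 without the HAK-1B TEC.

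Chac1, which degrades glutathione and is known as a target of ATF4 and ATF3, had TECs on both sides of LSEC. Its log2 signals were 8.61 in LSEC, 7.71 in HAK-1B TEC, 6.78 in Hepa1-6 TEC, 10.56 in KYN-2 TEC and 10.61 in the cultured cells. KYN-2 TEC and the cultured cells were alike and high, and the Hepa1-6 TEC was lowest. Against LSEC it was 1.87-fold lower in HAK-1B TEC, 3.56-fold lower in Hepa1-6 TEC and 3.87-fold higher in KYN-2 TEC. The Hepa1-6 TEC signal was 14.2-fold below that of the cultured Hepa1-6 cells, and against LSEC Chac1 went the other way from Asns in the TEC of that line. The mean log2 ratio over the TECs, -0.26 ± 1.97 (SD, n = 3), was -1.37 without the KYN-2 TEC and 0.53 without the Hepa1-6 TEC.

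Sesn2, a sestrin that restrains mTORC1 when leucine is short, read 10.42 in LSEC, 10.63 in HAK-1B TEC, 10.67 in Hepa1-6 TEC, 10.62 in KYN-2 TEC and 10.62 in the cultured cells. No array departed from another by more than 0.25 on the log2 scale. Its mean log2 ratio over the TECs was 0.21 ± 0.03 (SD, n = 3), the narrowest of the 10 genes.

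Xbp1, the factor whose mRNA IRE1 splices, was within 2-fold of LSEC in all TECs through its brightest probe and lowest in the cultured cells. Its brightest probe read 14.47 in LSEC, 13.91 in HAK-1B TEC, 14.73 in Hepa1-6 TEC, 14.87 in KYN-2 TEC and 12.94 in the cultured cells. The cultured cells were 2.88-fold below LSEC, and the other 2 probes also placed them lowest. In KYN-2 TEC the 3 probes gave ratios to LSEC of 1.32-fold, 2.14-fold and 0.971-fold. The probes differed most in that TEC.

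Hspa5 encodes BiP, the main chaperone of the ER lumen, and had its highest signal in KYN-2 TEC through all 3 probes. The brightest probe read 15.82 in LSEC, 15.35 in HAK-1B TEC, 15.25 in Hepa1-6 TEC, 16.27 in KYN-2 TEC and 14.35 in the cultured cells. The next probe read 13.58, 13.69, 14.00, 14.61 and 12.42, and the third 12.99, 13.21, 13.23, 14.14 and 11.84. All 3 probes placed KYN-2 TEC highest and the cultured cells lowest. Against LSEC, KYN-2 TEC was 1.36-fold higher through the brightest probe and 2.04-fold and 2.22-fold higher through the others, whereas the HAK-1B and Hepa1-6 TECs were below LSEC through the brightest probe and above it through the others. The direction of Hspa5 in those 2 TECs therefore depends on the probe, and in HAK-1B TEC also on the scaling (log2 ratio -0.46, or 0.02 with arrays scaled to the 75th percentile).

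Herpud1, a membrane protein of ER-associated degradation, was the one gene of the 10 below LSEC in all 3 TECs through its brightest probe. Its brightest probe read 13.69 in LSEC, 13.05 in HAK-1B TEC, 12.12 in Hepa1-6 TEC, 13.18 in KYN-2 TEC and 10.71 in the cultured cells. The other read 11.09, 11.11, 9.64, 11.64 and 8.89. Both probes put the cultured cells lowest, 7.87-fold and 4.61-fold below LSEC, and the Hepa1-6 TEC next, 2.96-fold and 2.72-fold below. For the HAK-1B and KYN-2 TECs the probes differed in sign, so the mean log2 ratio of -0.90 ± 0.58 (SD, n = 3) became -0.59 with the probes averaged.

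**Figure D2:**
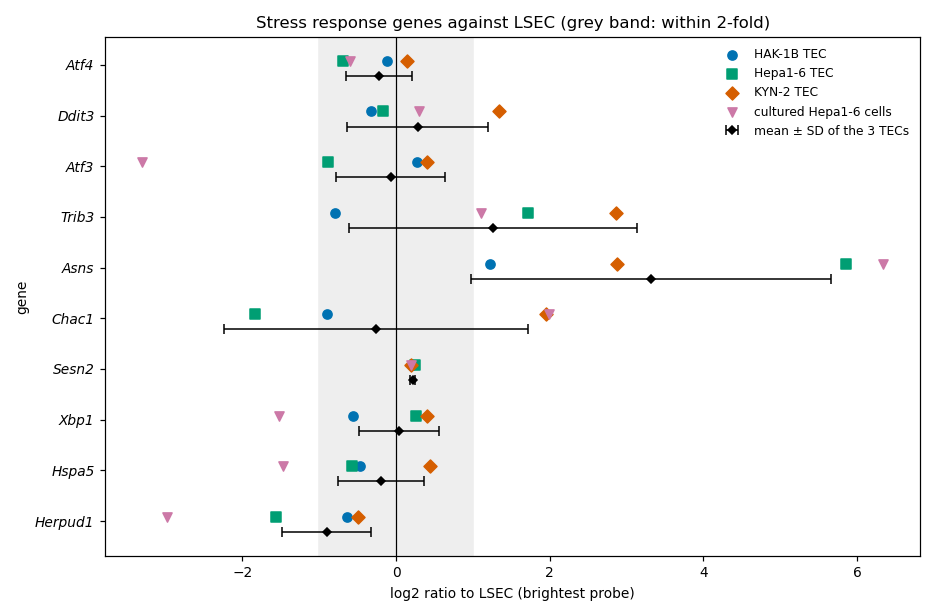
Log2 ratio to LSEC (horizontal axis) of the brightest probe of each gene (vertical axis) in the 3 TECs and in cultured Hepa1-6 cells, with the mean and SD of the 3 TECs as black diamonds and bars; the grey band marks ratios within 2-fold. Only Asns lies above the band in all 3 TECs, and Chac1 lies at -0.90, -1.83 and 1.95.

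Each TEC was compared with LSEC to ask which of the 10 genes differ between tumor and liver endothelium. The rule of the methods calls a gene higher when its ratio reaches 1.5 and its Z-score 2, and lower when the ratio is 0.66 or less and the Z-score -2 or less. This score is the log2 ratio less its mean over the probes kept, divided by the SD, and it set the limit in practice at 7.25-fold in HAK-1B TEC, 11.4-fold in Hepa1-6 TEC and 6.79-fold in KYN-2 TEC for higher genes. By this rule 0 of 10 genes were called in HAK-1B TEC, where 3.11% of 20298 genes were called higher and 3.94% lower. In Hepa1-6 TEC 1 gene, Asns, was called higher, against 4.55% of 26322 genes, and 0 lower, against 2.04%. In KYN-2 TEC 2 genes, Asns and Trib3, were called higher, against 3.64% of 19819 genes, and 0 lower, against 2.87%. The ratios of 7.31 and 7.26 lie just above the limit of 6.79, and with scaling to the 75th percentile, or quantile normalization of the pair alone, 1 gene was called in KYN-2 TEC.

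A ratio of 2 with no Z-score was used for a second count. In HAK-1B TEC it gave 1 gene higher, Asns, and 0 lower, against 17.4% and 18% of all genes. In Hepa1-6 TEC it gave 2 higher, Asns and Trib3, and 2 lower, Chac1 and Herpud1, against 25% and 22.1%. In KYN-2 TEC it gave 4 higher, Ddit3, Trib3, Asns and Chac1, and 0 lower, against 16.8% and 18.3%. The 10 genes had a median log2 ratio of -0.39 in the HAK-1B, -0.37 in the Hepa1-6 and 0.43 in the KYN-2 TEC, where all genes kept had -0.0019, 0.087 and -0.047. Scaling to the 75th percentile gave a median of 0.98 for the 10 genes in KYN-2 TEC. These 3 comparisons share the LSEC array.

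Within 2-fold of LSEC in all 3 TECs through the brightest probe were 5 of 10 genes (Atf4, Atf3, Sesn2, Xbp1 and Hspa5) against 36.8% of 26771 genes. In KYN-2 TEC the other Hspa5 probes were 2.04-fold and 2.22-fold above LSEC, and another Xbp1 probe 2.14-fold. Above LSEC in all 3, by any amount, were Asns and Sesn2, 2 of 10 against 27% of genes, and below it in all 3 was Herpud1, 1 of 10 against 28.5%. Above 2-fold in all 3 was Asns, against 5.54%, and 0 of 10 were below 2-fold in all 3, against 8.26%.

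Through the brightest probes, KYN-2 TEC had the highest signal of the 3 TECs for 8 of 10 genes. The exceptions were Asns and Sesn2, which were highest in Hepa1-6 TEC. Over all genes KYN-2 TEC was highest for 27.4% of 26771. HAK-1B TEC was highest for 0 of 10 genes, against 30.6% of all, and Hepa1-6 TEC for 2 of 10, against 42%. The lowest of the TECs was Hepa1-6 for 5 genes, against 38.7% of all, HAK-1B for 4, against 33.4%, and KYN-2 for 1, Sesn2, against 27.9%. Among 16972 genes well above background on all 4 endothelial arrays, a background chosen after the count of 8 was seen, KYN-2 TEC was highest for 31.8%, HAK-1B TEC for 35.6% and Hepa1-6 TEC for 32.6%. The count of 8 stayed with arrays scaled to the 75th percentile, with another background correction and with the deposited table of normalized values. It rests on 1 KYN-2 array, and for Atf3 and Herpud1 the KYN-2 TEC lay above the HAK-1B TEC by a log2 difference of only 0.13 each. The count also depends on the Ddit3 probe. Through the other Ddit3 probe the HAK-1B, Hepa1-6 and KYN-2 TECs read 9.02, 9.30 and 8.97, so KYN-2 TEC was the lowest.

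**Figure D3:**
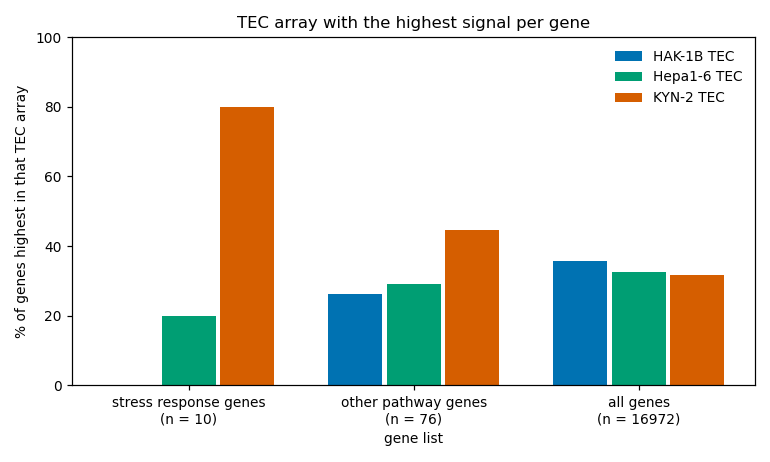
Percentage of genes (vertical axis) for which each TEC array had the highest normalized signal of the 3, for the 10 stress response genes, 76 other genes of the pathways and 16972 genes in all, each well above background on the 4 endothelial arrays; each bar is 1 array and has no error. Through the brightest probes, KYN-2 TEC is highest for 8 of the 10 genes and for 31.8% of all genes.

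The 3 TECs were also fitted as 1 class in limma, with LSEC and the cultured cells as classes of 1 array and 2 residual degrees of freedom, so that single arrays were assumed to vary like the TECs. Of 46054 probes 0 (0%) had an adjusted p under 0.05 between TECs and LSEC, and 3795 (8.24%) an unadjusted p under 0.05. Through their brightest probes, 0 of the 10 genes passed either limit, and the smallest adjusted p from limma was 0.764, for Asns. Between the cultured cells and the TECs 1835 probes (3.98%) had an adjusted p under 0.05 in limma, and 9555 (20.7%) an unadjusted one. None of the 18 probes did after adjustment, with the smallest adjusted p of 0.114 for Atf3. A fit with 2 residual degrees of freedom has little power, and these values do not show that the genes are alike.

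Cultured Hepa1-6 cells were compared with LSEC and with the TEC of the same line to place cancer cell RNA beside the endothelial values. Against LSEC, 1 of 10 genes, Asns, was called higher by the rule of the methods, where 2.59% of 19921 genes were, and 0 lower, where 4.81% were. By the ratio of 2, Asns, Chac1 and Trib3 were higher, against 28.2% of genes, and Atf3, Herpud1, Xbp1 and Hspa5 lower, against 30.9%. Asns, Chac1 and Trib3 were 80.9-fold, 3.99-fold and 2.16-fold higher, and Xbp1, Hspa5 and Herpud1 2.88-fold, 2.77-fold and 7.87-fold lower. Sesn2, Ddit3 and Atf4 were within 2-fold through their brightest probes, and the other Ddit3 probe was 2.60-fold lower. Of the wider lists described below, 6 of 18 ER chaperones and folding enzymes and 8 of 13 genes of ER-associated degradation and translocation were higher in the cultured cells than in LSEC. Among all genes kept, 9877 of 19921 were. The median over the 10 genes was -0.20 and that over all genes -0.017, and the former turned to 0.37 with scaling to the 75th percentile.

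Between the Hepa1-6 TEC and the cultured cells, 0 of 10 genes were called by the rule, against 4.97% of 26233 genes higher in the TEC and 1.57% lower. The ratio of 2 gave Atf3, Xbp1 and Herpud1 higher in the TEC, at 5.35-fold, 3.46-fold and 2.66-fold, against 26% of genes, and Chac1 lower, against 22.7%. Hspa5 was 1.87-fold higher through its brightest probe and 2.99-fold and 2.63-fold higher through the others. The 10 genes had a median log2 ratio of 0.33, or -0.010 with scaling to the 75th percentile, against -0.0075 over all genes. Through their brightest probes Asns, Atf4 and Ddit3 were lower in the TEC than in the cells, at 0.715, 0.940 and 0.723 times their level. The other probes read 0.519 times for Asns and 0.499 times for Atf4, and for Ddit3 the sign turned, to 1.61-fold higher. With scaling to the 75th percentile the log2 ratio of Asns was -1.07, past 2-fold.

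Other genes of both responses were read from a list of 83 genes in 7 roles, of which 82 were well above background on at least 1 of the 4 endothelial arrays. Above 2-fold in all 3 TECs were 11 of 82, against 5.54% of all genes, and below it in all 3 was 1 of 82, Dnajc3, against 8.26%. The 11 were the feedback and partner genes Nupr1, Stc2 and Vldlr, the synthesis enzymes Psat1 and Mthfd2, the transporters Slc7a11, Slc7a1, Slc1a5 and Slc1a4 and the folding genes P4hb and Ero1l. Of these, Slc7a11, Stc2 and Vldlr were not well above background in LSEC. They entered the count only through the TECs, where they are high, so they add little to it. The 5.54% of all genes can hold such genes too. In the HAK-1B and KYN-2 TECs alone, without the Hepa1-6 TEC, 14 of 82 were above 2-fold in both and 3 below, against 8.47% and 11.3% of genes. The median log2 ratio of the list was 0.15, 0.46 and 0.63 in the HAK-1B, Hepa1-6 and KYN-2 TECs.

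Amino acid transporters differed most. Of 9 genes, 4 were above 2-fold in all 3 TECs and 0 below, against 5.54% and 8.26% of all genes. The median log2 ratio was 1.29, 1.30 and 2.17 over the 8, 9 and 8 genes above background in each comparison. Slc7a11, the cystine transporter, was not well above background in LSEC and read 9.28, 7.37 and 8.43 in the TECs, in the same order, and 9.61 in the cultured cells, which placed the mean of the TECs at least 12.8-fold above LSEC. For this and the other genes dim in LSEC, the bound is the TEC mean over the lowest well-above-background signal of the LSEC array. Slc1a5, the glutamine transporter, read 7.77 in LSEC and 10.80, 11.39 and 10.69 in the TECs, and Slc7a1, for cationic amino acids, 9.40 and then 11.28, 12.94 and 11.86. Both were lowest in LSEC and more than 2-fold above it in every TEC, as Asns was. Asns differed more among the TECs, from 9.15 in HAK-1B TEC to 13.78 in Hepa1-6 TEC. For Slc1a5 and Slc7a1 the cultured cells were about as high as the Hepa1-6 TEC, at 11.45 and 13.10. The median of fibroblast and stellate markers was also higher in every TEC and that of LSEC markers lower, as given above. Among markers well above background on LSEC or the TEC compared, only Dcn and Lyve1 went the other way. Dcn had a log2 ratio to LSEC of -0.79 for the HAK-1B TEC. Lyve1 had ratios of 1.88 for the KYN-2 TEC and 0.97 for that of Hepa1-6. The part of these cell types in the rises was not tested.

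Among 10 genes of amino acid synthesis and one-carbon metabolism, 2 were above 2-fold in all 3 TECs and 0 below, against 5.54% and 8.26% of all genes. In the HAK-1B and KYN-2 TECs 2 were below 2-fold in both, against 11.3% of all genes, the transsulfuration enzymes Cbs and Cth. Cbs read 8.84 in LSEC and 5.90 and 6.02 in these 2 TECs and was 1.58-fold higher in Hepa1-6 TEC, and Cth read 6.02 in LSEC and in Hepa1-6 TEC and was not well above background in the other TECs. Psat1, the aminotransferase of serine synthesis, read 7.10 in LSEC, 10.07, 12.67 and 11.05 in the TECs, again in that order, and 13.73 in the cultured cells. Phgdh, the first enzyme of that route, read 8.58, 9.41, 15.04, 10.71 and 16.88 in the same order. Psat1 and Phgdh share with Asns the order LSEC, HAK-1B TEC, KYN-2 TEC, Hepa1-6 TEC and cultured cells from low to high. Slc7a1, Eprs and further genes of the list had this order too, and its share over all genes was not counted. Mthfd2, a mitochondrial enzyme of the folate cycle, read 5.67 in LSEC, 8.18, 8.25 and 8.94 in the TECs and 10.66 in the cultured cells. The synthesis genes were also the group furthest above LSEC in the cultured cells, with 9 of 10 above 2-fold, against 28.2% of all genes, and a median log2 ratio of 3.31.

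Partners and feedback genes of ATF4 were above 2-fold in all 3 TECs in 3 of 9 cases, against 5.54% of all genes. Vldlr, a lipoprotein receptor, and Stc2, a secreted stanniocalcin, were not well above background in LSEC, and the mean of the TECs was at least 20.4-fold and at least 7.68-fold higher. Nupr1, a stress-induced chromatin protein, read 9.51 in LSEC, 12.76, 10.85 and 11.87 in the TECs and 9.46 in the cultured cells. Unlike Asns it was highest in HAK-1B TEC and no higher in the cultured cells than in LSEC.

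The sensors, kinases and phosphatases stayed closer to LSEC, with 6 of 11 within 2-fold in all 3 TECs, against 36.8% of all genes. Above 2-fold in all 3 were 0 of 11, against 5.54%. Creb3l2, an ER-bound transcription factor, read 13.03 in LSEC and 11.32, 11.84 and 12.41 in the TECs. Ppp1r15a, the phosphatase subunit that reverses eIF2α phosphorylation, read 16.35 in LSEC and 15.58, 14.76 and 15.42 in the TECs, and Atf6, one of the ER sensors, 10.21 and then 11.27, 10.90 and 11.13. Creb3l2 and Ppp1r15a were thus highest in LSEC and Atf6 lowest there.

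Aminoacyl-tRNA synthetases were within 2-fold in all 3 TECs in 7 of 12 cases, against 36.8% of all genes. Past it in all 3 were 0 of 12, against 5.54% of all genes above and 8.26% below. Sars read 12.25 in LSEC and 12.74, 13.42 and 13.64 in the TECs, Eprs 11.11 and then 11.51, 12.57 and 12.04, and Wars, which interferon also induces, 14.38 and then 12.88, 13.66 and 13.43. Sars and Eprs were lowest in LSEC and Wars highest there.

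Of 18 ER chaperones and folding enzymes, 2 were above 2-fold in all 3 TECs and 1 below, against 5.54% and 8.26% of all genes. P4hb, a protein disulfide isomerase, read 12.85 in LSEC and 14.36, 14.47 and 15.17 in the HAK-1B, Hepa1-6 and KYN-2 TECs. Ero1l, the oxidase that recharges such isomerases and a gene also known from hypoxia, read 11.64 and then 12.79, 12.65 and 14.71. Hyou1, an ER chaperone, read 6.07 and then 6.77, 8.42 and 7.61, so the highest TEC was KYN-2 for P4hb and Ero1l and Hepa1-6 for Hyou1. The median log2 ratio of the 18 genes was -0.05, 0.17 and 0.71 in the order above. Hspa5, which belongs with them, had ratios of -0.46, -0.57 and 0.45 through its brightest probe. Its other probes gave 0.11, 0.41 and 1.03, and 0.22, 0.24 and 1.15, so its place beside these medians depends on the probe.

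Genes of ER-associated degradation and translocation were within 2-fold in all 3 TECs in 8 of 13 cases, against 36.8% of all genes. Derl3, a Derlin that is abundant in secretory cells, read 6.88 in LSEC and 6.15, 7.02 and 11.18 in the TECs, in the order above. It was highest in KYN-2 TEC, as Chac1 was, and by a wider margin over the other endothelial arrays. Edem1 read 10.06 in LSEC and 11.56, 10.53 and 11.11 in the TECs, and Edem2 7.53 and then 8.74, 7.80 and 8.69, both of which help draw misfolded glycoproteins into degradation. Herpud1 was below LSEC through its brightest probe in the same 3 TECs.

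**Figure D4:**
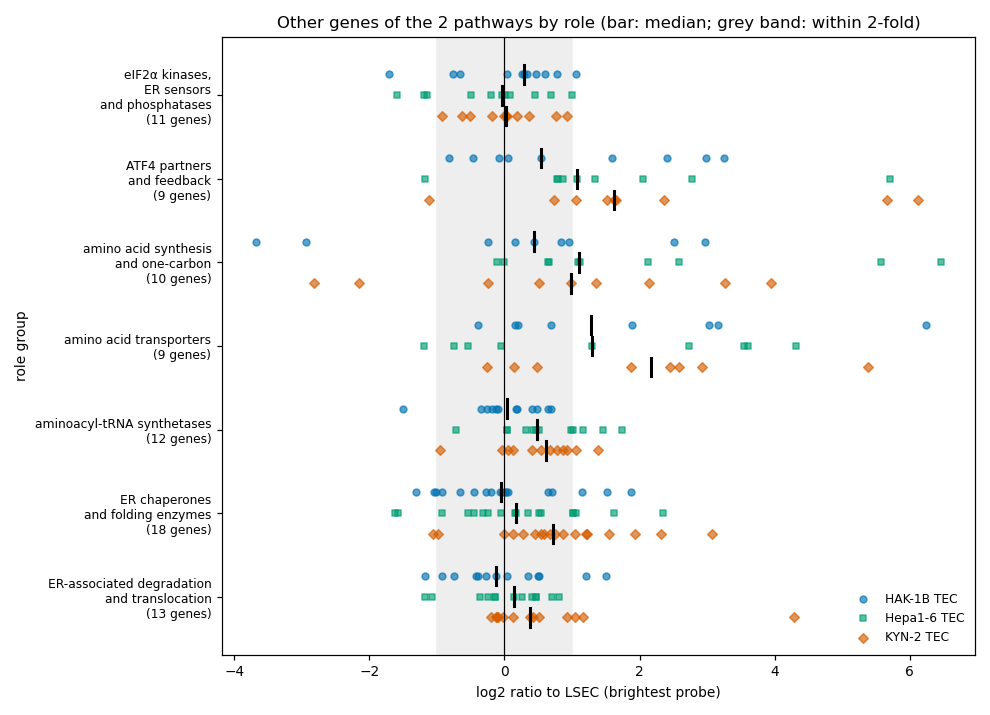
Log2 ratio to LSEC (horizontal axis) of the other genes of both responses by role (vertical axis) in the HAK-1B, Hepa1-6 and KYN-2 TECs; each point is the brightest probe of 1 gene well above background on LSEC or that TEC, black bars are medians, and the grey band marks ratios within 2-fold. Transporters have medians of 1.29, 1.30 and 2.17, and sensors and phosphatases 0.30, -0.04 and 0.03.

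KYN-2 TEC was the highest of the TECs for 37 of the 82 genes, against 27.4% of all genes, HAK-1B TEC for 21 and Hepa1-6 TEC for 24. Among the 76 that were well above background on all 4 endothelial arrays the count was 34, against 31.8% of all such genes. The share in this wider list lay nearer to that of all genes than the 8 of 10 did.

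Heat shock genes, which answer unfolded protein outside the ER, were mostly lower in TECs. Of 10 genes, 6, 5 and 7 were at least 2-fold below LSEC in the HAK-1B, Hepa1-6 and KYN-2 TECs, against 18%, 22.1% and 18.3% of all genes, with median log2 ratios of -1.44, -1.17 and -1.54. Hspd1, a mitochondrial chaperone on the same list, was 2.47-fold higher in Hepa1-6 TEC and 1.82-fold higher in KYN-2 TEC. Hspa1b read 15.70 in LSEC and 13.08, 11.27 and 11.93 in the TECs, and Hspb1 14.71 and then 11.77, 10.41 and 12.16. Of the immediate early genes, Jun read 16.68 in LSEC and 15.16, 15.22 and 15.32 in the TECs, while Fosb read 13.38 and then 15.01, 13.91 and 14.72. LSEC was the highest array for Jun, Hspa1b and Hspb1 and the lowest endothelial array for Fosb.

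Genes with a profile close to those of Hspa5 and Ddit3 were sought among 12567 probes well above background on all 5 arrays, by the root mean square difference of log2 values after each profile was centred on its mean over the 5 arrays. The nearest to Hspa5 were Wdr91, Kdm3a, Tom1, Slfn5 and Gm32191, at differences of 0.083 to 0.126. The nearest to the brightest Ddit3 probe were Impdh1, Angptl6, March9, Scnn1a and Gjd3, at 0.100 to 0.146. None of these 10 genes is on the list of the pathways, and with 5 arrays the likeness is a description only.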

How the data were processed

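Per the labels, cRNA was amplified from total RNA, labelled with Cy3 and hybridized to a 60-base mouse array, and the authors extracted spots with Agilent Feature Extraction (9.5.1.1 in the submitters' processing notes, 10.7.1.1 in the file headers). They deposited intensities on a linear scale for each spot, background-subtracted within the array, with flags of 0 or 1 that count as other values, and a table of normalized intensities. That table correlated with the values used here at r = 0.99985 over probes on the log2 scale, and all 5 of its columns have the same median of 42.96, where the methods speak of quantile normalizing a pair of samples. How many arrays were normalized together is not settled by these. Where the methods describe the arrays they name Huh-7, and elsewhere, as in the labels, HAK-1B, and RNA kits differ between labels and methods. Here control spots were left out, repeated spots averaged, and log2 signals quantile normalized over 5 arrays. Probes present on 1 or both arrays of a pair were kept and 4460 lincRNA probes left out, following the methods. Each gene was represented by the probe of highest mean signal. The Z-score, which the methods do not define, was the centred log2 ratio of the kept probes over its SD. No test applies to 1 array against 1, and limma 3.58.1 (R 4.3.3) with Benjamini-Hochberg adjustment was fitted to 3 classes. Python 3.11.15 with pandas 2.3.3, numpy 2.4.6, scipy 1.17.1 and matplotlib 3.10.9 did the rest, and the limma step was tested on simulated data.

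The 10 genes, the other gene lists and the motifs were chosen with earlier results of these data known. Named beside the 10 genes were the 3 genes of each role with the largest mean log2 ratio over the TECs, any gene called in all 3 TECs, the 2 largest of the heat shock and immediate early lists, and the 5 profiles nearest to Hspa5 and to Ddit3. Slc1a4, Dnajc3, Cbs, Cth, Hspd1 and single cell type markers were named in addition after their values were seen. Alternatives were 75th percentile scaling, quantile normalization by pair, the deposited table, normexp (offset 50), other flag filters, the ratio of 2, the mean over probes, and each TEC left out. A slide block was not fitted. Precision is limited by the number of arrays.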

Additional observations from a re-analysis of the deposited data

Results flagged for a closer look

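Chac1 went opposite ways in TECs under the same comparison with LSEC. Its log2 ratio to LSEC was -0.90 in the HAK-1B TEC, -1.83 in the Hepa1-6 TEC and 1.95 in the KYN-2 TEC, and it was the only one of the 10 genes that was past 2-fold in both directions among the TECs. That limit of 2-fold was set after the values had been seen. Each TEC is 1 array, so the difference was not tested. Chac1 had 1 probe, which was well above background on all 5 arrays, and the signs were the same with arrays scaled to the 75th percentile, with normexp and with the deposited table.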

How the results depend on the processing

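No paired analysis was possible because the labels give no replicate numbers, with a single array for every condition. Of the counts, medians and means that answer a comparison, 142 alternative values moved by less than the limit set for them (1.5 times for a count, the spread between arrays for a value) and 15 by more, and values near 0 could change sign on either side of that limit. With the ratio of 2 in place of the rule, 1 gene was counted in HAK-1B TEC, 4 in Hepa1-6 TEC, 4 in KYN-2 TEC, 7 in the cultured cells against LSEC and 4 between the Hepa1-6 TEC and the cells. Scaling to the 75th percentile left 1 gene called in KYN-2 TEC, called 1 between the Hepa1-6 TEC and the cells, moved the median of the 10 genes to 0.98 in KYN-2 TEC and to 0.37 in the cultured cells, and moved the mean log2 ratio of Atf4 to 0.28. It also moved the median of all probes in Hepa1-6 TEC to 0.43, against 0.047 after quantile normalization. Quantile normalization by pair left 1 gene called in KYN-2 TEC and called 1 between the Hepa1-6 TEC and the cells, as normexp did in the latter comparison. Probes well above background on both arrays gave 2 genes in the cultured cells against LSEC and 2 between the Hepa1-6 TEC and the cells. In each of these cases the cause was not tested, apart from the ratio of 2, which is a looser rule by construction. Without the Hepa1-6 TEC, 3 of the 82 other genes were below 2-fold in the remaining TECs, against 1 in all 3, an alternative added after the data were seen. Over all settings, each TEC left out included, the mean log2 ratio over the TECs ran from 2.05 to 4.36 for Asns, 0.46 to 2.29 for Trib3, 0.20 to 0.23 for Sesn2 and -1.10 to -0.57 for Herpud1. It crossed 0 for Atf4 (-0.40 to 0.28), Ddit3 (-0.31 to 0.58), Atf3 (-0.31 to 0.34), Chac1 (-1.37 to 0.53), Xbp1 (-0.15 to 0.41) and Hspa5 (-0.52 to 0.30). In limma 0 of 10 genes passed under any alternative, with smallest adjusted p-values of 0.401 to 0.990. Slide as a block was not run, since each slide held 1 group.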
